A study of Mus musculus with 8 samples.

Results

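The 10 genes described here serve cholesterol efflux and lipid handling in macrophages, and all 10 were found by symbol among the 22013 genes of the count table. They are the sterol exporters Abca1 and Abcg1, the apolipoprotein Apoe, the liver X receptors (LXRs) Nr1h3 and Nr1h2, the LXR target Mylip, the lipase Lpl, the nuclear receptor Pparg, the lipid droplet protein Plin2 and the fatty acid carrier Fabp4. They were read in 8 RNA-seq libraries of RAW264.7, an established line of mouse macrophages that were transformed by a leukaemia virus. All 8 libraries share that background. The rFSTL1 group (4 libraries) received recombinant follistatin-like 1, a secreted glycoprotein, at 100 ng/mL for 24 h, and the PBS group (4 libraries) received the buffer. In the study, the series addressed how macrophages respond to this protein. The labels do not say whether the libraries of a group came from separate cultures, so p-values measure the spread between these libraries, which may be technical.

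Macrophages take up lipoproteins and must dispose of the cholesterol they bring. LXRs act as heterodimers with retinoid X receptors, are activated by oxysterols, and switch on Abca1, Abcg1, Apoe and Mylip. Abca1 passes cholesterol to lipid-poor apolipoproteins and Abcg1 to mature high-density lipoprotein, whereas Mylip marks lipoprotein receptors for degradation and so limits uptake. PPARγ, encoded by Pparg, promotes fatty acid uptake and storage and is known to act upstream of the LXR Nr1h3 in macrophages.

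None of the 9 tested genes of the set changed at an adjusted p under 0.05 after rFSTL1 (quasi-likelihood test of edgeR, Benjamini-Hochberg adjusted over the 10748 genes that passed the expression filter). DESeq2 and limma voom also called 0. By comparison, 0.344% of all tested genes passed in either direction and 0.326% passed as higher, which is 37 genes and 35 genes. At an unadjusted p under 0.05 there were 4 of 9 (44.4%), namely Nr1h2, Mylip, Lpl and Abcg1, against 15.9% of all tested genes. The set was chosen with earlier results of these data known, so these shares do not test for an excess. The count of 4 moved with single libraries: it was 1 without rFSTL1 3 and 2 without PBS 1, PBS 4 or rFSTL1 4. Leaving out any other library gave 3 or 4. Over all tested genes the count was 1704, and 1102 without rFSTL1 3, 1600 without PBS 1, 1270 without PBS 4 and 1253 without rFSTL1 4. Without rFSTL1 1 or rFSTL1 2 it rose, to 2121 and 2315. The log2 fold change was positive for 8 genes and negative for 1, with a median of 0.10 against 0.01 over all tested genes. Levels are given below as CPM, counts scaled to a common library size with edgeR's TMM factors, and in bulk RNA fewer cells and less RNA per cell cannot be told apart.

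**Figure D1:**
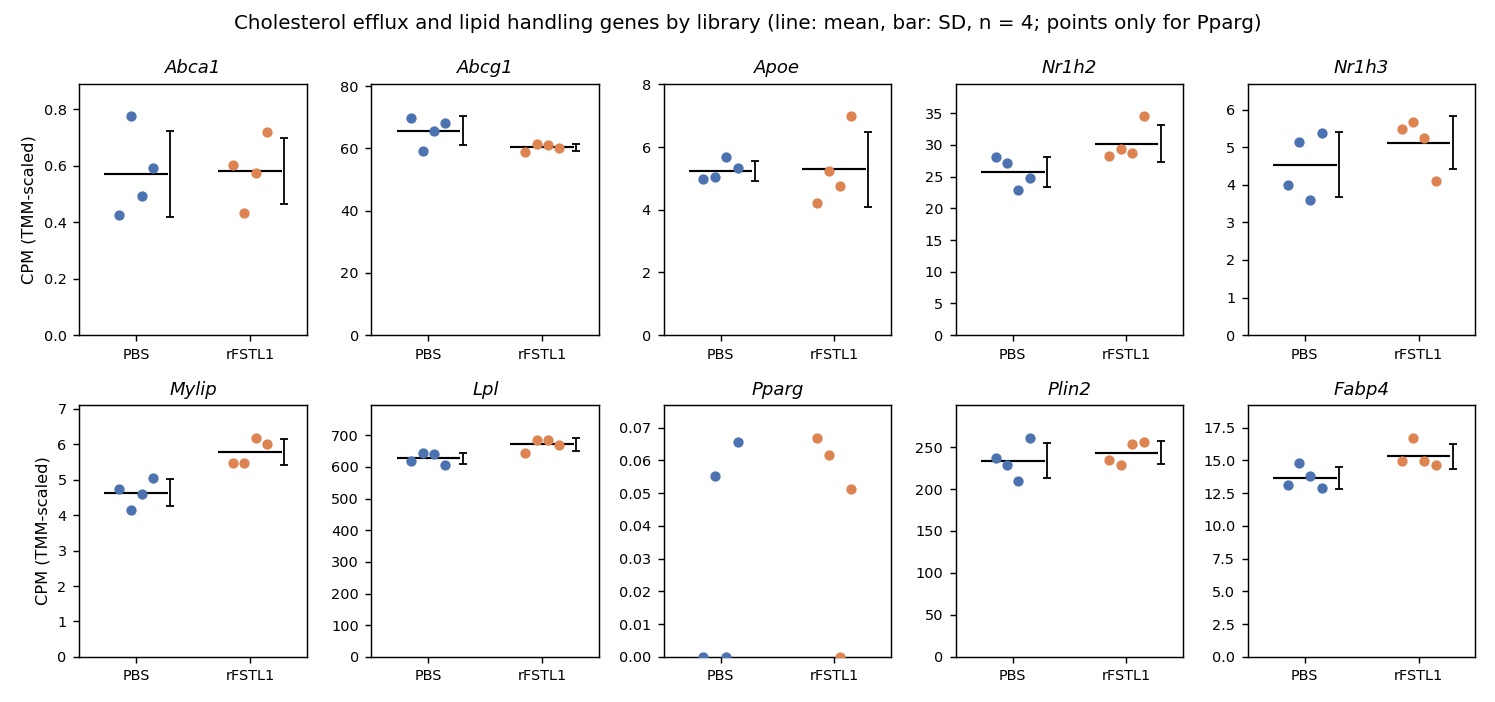
Level of each of the 10 genes in CPM (linear axes starting at 0) in the 4 PBS libraries (blue) and the 4 rFSTL1 libraries (orange). Lines are group means and bars are SD over 4 libraries, omitted for Pparg with its 2 and 3 counts per group. The groups are separated for Nr1h2 and Mylip and overlap for the other 8 genes.

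The 8 libraries held 15183112 to 20234472 counts under PBS and 15062026 to 19260966 under rFSTL1. The rFSTL1 libraries differed more among themselves than the PBS libraries did, and pairs of them gave chi-square values of 4.52 to 19.1 per degree of freedom against 3.03 to 4.21. The widest differences, 12.4 and 19.1, were those of rFSTL1 4 from rFSTL1 1 and 2, and values without it are given below where they moved a result by over 1.5 times, turned its sign or ended a call, and for Nr1h2, Lmf1 and Ppard. Of 10 macrophage markers, 9 passed the filter and 0 were called, and the 10 together summed to 4699 to 4850 CPM under PBS and 4761 to 4928 CPM under rFSTL1. Adgre1, which encodes F4/80, was low at 3.43 CPM under PBS and 3.66 CPM under rFSTL1, and Mrc1 did not pass the filter with 16 and 11 counts. The adipocyte markers, which matter for a list that holds Lpl, Fabp4, Plin2 and Pparg, summed to at most 0.134 CPM in any library, and 3 of 5 were at 0 in all 8. Summed fibroblast, hepatocyte, endothelial and lymphocyte markers reached at most 1.03, 1.35, 0.935 and 0.257 CPM, and none of these or of the adipocyte markers passed the filter. These traces were uneven. The hepatocyte gene Alb had 13 counts in rFSTL1 2 and at most 1 in any other library. The fibroblast gene Dcn had 5 and 7 counts in PBS 1 and PBS 2 and 0 elsewhere.

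The set spanned a wide range of levels. Scaled by the length of each gene's longest annotated transcript, Lpl stood highest with a mean over the 8 libraries of 158 CPM per kb (range 147 to 167), followed by Plin2 with 126 (111 to 138). These ranges do not overlap, and Lpl and Plin2 lay above 97.0% and 96.1% of the tested genes on this scale. A second tier held Nr1h2 at 14.0 CPM per kb (11.4 to 17.3) and Abcg1 at 10.8 (10.1 to 12.0), whose ranges overlap. Apoe at 3.75 (2.99 to 4.96) and Fabp4 at 3.42 (3.04 to 3.94) overlapped in the same way, as did Nr1h3 at 2.43 (1.81 to 2.85) and Mylip at 1.70 (1.35 to 2.01). Abca1 came far below, at 0.0562 CPM per kb (0.0414 to 0.0755), above only 0.0653% of tested genes. Pparg was lowest at 0.0177 (0 to 0.0314).

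**Figure D2:**
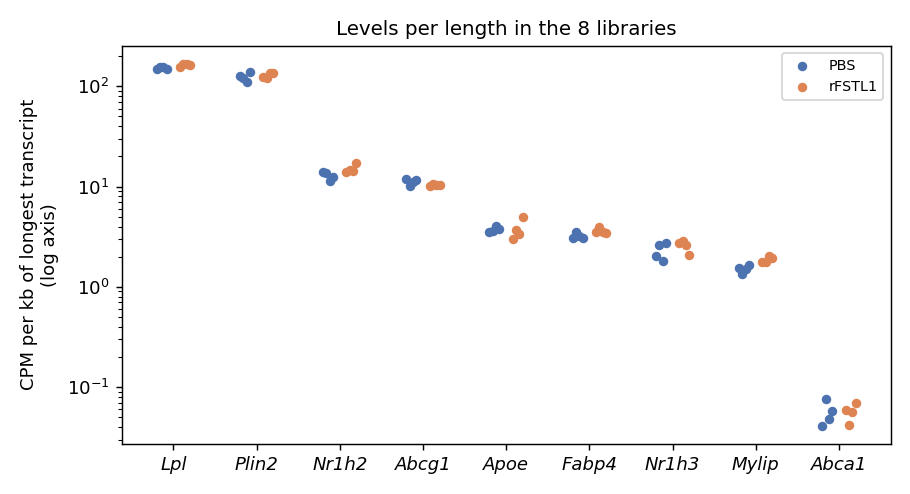
Level of the 9 tested genes per kb of longest transcript (log axis) in each PBS (blue) and rFSTL1 (orange) library, ordered by mean. Lpl and Plin2 exceed 100 CPM per kb in every library, and Abca1 stays under 0.1.

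Among the receptors, Nr1h2, which encodes the widely expressed LXRβ, had the smallest p-value of the set. Its level was 28.1, 27.1, 22.8 and 24.8 CPM in PBS libraries 1 to 4 and 28.3, 29.4, 28.7 and 34.5 CPM in rFSTL1 libraries 1 to 4. Every rFSTL1 library exceeded every PBS library, by a narrow margin between rFSTL1 1 and PBS 1. Groups without overlap, higher under rFSTL1, occurred in 4.63% of all tested genes and in 2 of the 9 genes of the set. The mean was 25.7 ± 2.35 CPM under PBS and 30.2 ± 2.89 under rFSTL1 (SD, n = 4), a fold of 1.18 (95% interval 1.04 to 1.33), with an adjusted p of 0.206 by edgeR. The exact two-sided permutation p of 0.0286 is the smallest that 4 against 4 libraries allow. The log2 fold change of 0.24 became 0.17 without rFSTL1 4 and 0.12 in a fit that took out each library's dependence on transcript length and GC content. The Nr1h2 transcript has the highest GC content of the tested set, 60.6%, and the part of GC content in its difference was not tested beyond that fit.

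The 100 bases before the RefSeq start of Nr1h2 (GRCm38.p6, chr7:44553966-44554065, minus strand, printed 5′ to 3′ along the gene) are shown because this receptor gene separated the groups. Capitals mark 3 matches to the ETS-type motif CCGGAAG, searched on both strands, which occurs in the 250 bases before 6.91% of 32851 RefSeq starts. A match is a string of letters and not a measured binding site.
Nr1h2: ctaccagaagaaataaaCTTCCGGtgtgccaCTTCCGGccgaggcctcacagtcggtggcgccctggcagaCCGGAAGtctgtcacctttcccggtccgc

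Nr1h3 encodes LXRα, the receptor that is typically enriched in macrophages and liver. It was measured at 4.01, 5.15, 3.60 and 5.39 CPM under PBS and 5.48, 5.67, 5.23 and 4.11 CPM under rFSTL1. The groups overlapped, and rFSTL1 4, the highest library for Nr1h2, was the lowest of its group here. The log2 fold change was 0.18 (SE 0.16, edgeR adjusted p = 0.628). It was 0.07 without PBS 3, 0.12 without rFSTL1 2, 0.27 without rFSTL1 4 and 0.09 with the length and GC trend removed. An exon of Nr1h3 shares 34 bases (1.35% of its exon sequence) with Gm13783 on the same strand and how the authors' counting treated them is not given in the sources used here. In these cells LXRβ transcripts outnumbered LXRα transcripts per length, 5.76 to 1 under PBS and 6.02 to 1 under rFSTL1. On counts, the Nr1h2 to Nr1h3 ratio was 5.80 ± 1.07 and 6.06 ± 1.57 (SD, n = 4), with overlapping groups and an exact permutation p of 0.886.

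Pparg was close to absent from these libraries. It had 0, 1, 0 and 1 counts under PBS and 1, 1, 0 and 1 under rFSTL1, so it did not pass the filter. With 2 and 3 counts in all, no fold change is given, and a difference was not detectable at this depth. The partner of both receptor families, the retinoid X receptor, was represented by Rxrb at 41.4 CPM under PBS and 45.1 under rFSTL1, whereas Rxra lay near 1.11 and 1.01 CPM (adjusted p = 0.909). Rxra was named for its role after its values had been seen.

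The exporters differed sharply in level and neither was called. Abca1 had 7, 14, 10 and 9 counts under PBS and 9, 7, 11 and 14 under rFSTL1, which is 0.425, 0.775, 0.493 and 0.591 CPM against 0.601, 0.431, 0.576 and 0.719 CPM. The groups overlapped almost completely. With 40 and 41 counts per group the fold of 1.03 has a 95% interval of 0.611 to 1.72, so changes of moderate size in either direction lie within it. Without PBS 1 the log2 fold change of Abca1 turned from 0.04 to -0.08.

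The start of Abca1 is shown because it holds a textbook site of LXR action. In the 100 bases before it (GRCm38.p6, chr4:53159896-53159995, minus strand), capitals mark a match to an LXR-type direct repeat, searched on both strands as GGTTA, any 5 letters and GGTCA, found on the opposite strand and starting 67 bases upstream. Only 15 of 32851 RefSeq starts (0.0457%) have a match to these letters in the preceding 250 bases. Among the 7 genes of the set with an entry in the promoter table, no other held these letters. Abcg1, Lpl and Fabp4 had no entry. Other spellings of the repeat were not searched, so both the rarity and the lack of a match elsewhere depend on the letters chosen.
Abca1: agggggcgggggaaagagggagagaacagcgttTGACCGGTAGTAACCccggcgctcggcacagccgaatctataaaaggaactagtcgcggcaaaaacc

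Abcg1 was well measured and was the 1 gene of the set with a negative fold change. Its level was 69.8, 59.2, 65.5 and 68.0 CPM under PBS and 58.9, 61.3, 60.9 and 60.0 CPM under rFSTL1. PBS 2 fell among the rFSTL1 libraries, and the other 3 PBS libraries lay above all 4 of them. The mean was 65.6 ± 4.61 CPM under PBS and 60.3 ± 1.07 under rFSTL1 (SD, n = 4), a fold of 0.920 (95% interval 0.849 to 0.997). The unadjusted edgeR p of 0.0424 became 0.295 after adjustment, and the exact permutation p was 0.114. Per length, Abcg1 transcripts exceeded those of Abca1 by 215 to 1 under PBS and 189 to 1 under rFSTL1, a ratio that rests on the 7 to 14 counts of Abca1 per library.

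Apoe, the apolipoprotein that macrophages secrete as a cholesterol acceptor, showed no separation. It was measured at 4.98, 5.04, 5.67 and 5.32 CPM under PBS and 4.21, 5.23, 4.76 and 6.98 CPM under rFSTL1. The rFSTL1 libraries spread more widely and held both the lowest and the highest value. The log2 fold change was 0.02 (SE 0.16, edgeR adjusted p = 0.962), and its sign turned in 7 of 16 alternative fits, to -0.15 without rFSTL1 4.

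Mylip, which encodes a ubiquitin ligase, had the largest log2 fold change of the 9 tested genes. It was measured at 4.74, 4.15, 4.59 and 5.06 CPM under PBS and 5.48, 5.48, 6.18 and 6.01 CPM under rFSTL1, with no overlap between the groups. The mean was 4.63 ± 0.377 CPM and 5.78 ± 0.359 CPM (SD, n = 4), a fold of 1.25 (95% interval 1.04 to 1.51). The unadjusted edgeR p was 0.0221 and the adjusted p was 0.245, with the smallest exact permutation p of 0.0286. Over 16 alternative fits the log2 fold change of Mylip stayed between 0.28 and 0.37 and its adjusted p between 0.0980 and 0.503. Lrp8, an Apoe receptor that Mylip targets, was measured at 119 ± 3.85 CPM under PBS and 116 ± 5.95 CPM under rFSTL1 (SD, n = 4) and was not called (edgeR adjusted p = 0.742). Vldlr, another target, did not pass the filter. Both were named for their role after their values had been seen.

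The start of Mylip (GRCm38.p6, chr13:45389642-45389741, plus strand) is shown beside that of Nr1h2 because these genes separated the groups in the same direction. Capitals mark a TATAAA match 32 bases upstream, a motif found on either strand in the 250 bases before 12.4% of RefSeq starts. None of the ETS-type matches seen at Nr1h2 occurs in the 250 bases before Mylip.
Mylip: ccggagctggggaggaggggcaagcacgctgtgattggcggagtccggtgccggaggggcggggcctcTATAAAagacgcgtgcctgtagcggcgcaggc

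Lpl, the secreted lipase that releases fatty acids from triglyceride-rich lipoproteins, was abundant and varied little within the groups. It was found at 619, 644, 640.0 and 606 CPM under PBS and 643, 683, 687 and 671 CPM under rFSTL1. Only rFSTL1 1 fell within the PBS range. The mean was 627 ± 18.2 CPM and 671 ± 19.7 CPM (SD, n = 4), a fold of 1.07 (95% interval 1.01 to 1.13), with an unadjusted p of 0.0249, an adjusted p of 0.251 by edgeR and an exact permutation p of 0.0571. Its log2 fold change of 0.10 reached 0.15 with the length and GC trend removed, still not called (edgeR adjusted p = 0.0654).

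The storage genes Plin2 and Fabp4 differed in how tightly they were measured. Plin2, which coats lipid droplets, stood at 237, 228, 210.0 and 261 CPM under PBS and 235, 228, 254 and 256 CPM under rFSTL1, with all rFSTL1 values inside the PBS range. Its fold was 1.04 (95% interval 0.954 to 1.14, edgeR adjusted p = 0.652). Its log2 fold change of 0.06 ranged from 0.01 without PBS 3 to 0.11 without PBS 4 in the fits without 1 library, with 0.03 without rFSTL1 4, and it was 0.007 with the length and GC trend removed. Fabp4, a fatty acid binding protein of adipocytes and macrophages, stood at 13.1, 14.8, 13.8 and 12.9 CPM under PBS and 14.97, 16.7, 14.9 and 14.6 CPM under rFSTL1. Of the rFSTL1 libraries, 3 lay above all PBS libraries, and rFSTL1 4 fell just below PBS 2. The fold of Fabp4 was 1.12 (95% interval 0.988 to 1.27, edgeR adjusted p = 0.361). The related carrier Fabp5 exceeded Fabp4 per length by 35.0 to 1 under PBS and 34.4 to 1 under rFSTL1.

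**Figure D3:**
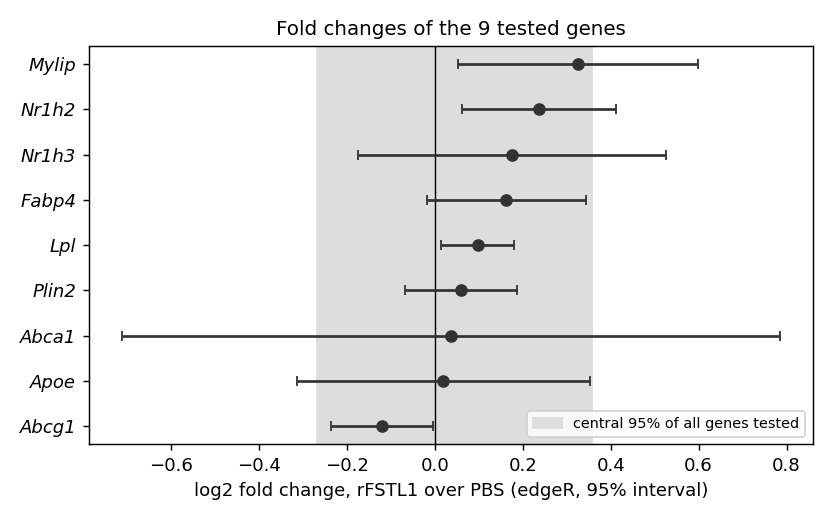
Log2 fold change (rFSTL1 over PBS, edgeR) of the 9 tested genes with 95% intervals. The grey band holds the central 95% of all 10748 tested genes, -0.27 to 0.36. All 9 estimates lie inside it, and the intervals of Mylip, Nr1h2, Lpl and Abcg1 exclude 0 before adjustment.

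The 5 genes whose levels followed Nr1h2 most closely within the groups were Endov, Nif3l1, AI467606, Eci2 and Dus1l. Likeness was the Pearson correlation over the 8 libraries of log2(CPM + 1) after subtraction of each group mean, among 8521 genes with a mean of at least 10 CPM, and these 5 had r of 0.98, 0.95, 0.95, 0.94 and 0.93. All points share the same libraries and their scaling, and the genes were picked as the highest of 8521 correlations over 8 points. None of the 5 was called, with log2 fold changes from 0.02 (Eci2) to 0.11 (Dus1l).

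The other genes of these pathways were described from 3 lists with 62 genes, of which 46 passed the filter. Of these, 1 gene rose, 0 fell, and the median log2 fold change was 0.03. The shares over all tested genes to set beside the counts below are again 0.344% called and 15.9% at an unadjusted p under 0.05. The list of efflux and sterol transport held 25 genes, 22 tested and 0 called, with 15 positive and 7 negative fold changes and 2 unadjusted p-values under 0.05. DESeq2 and limma voom called none of the efflux genes either. Its 4 genes with the smallest p-values were Srebf1, Lipa, Scd2 and Rxrb. Srebf1, which encodes the LXR target and lipogenic factor SREBP1, had means of 99.1 and 109 CPM (log2 fold change 0.13, edgeR adjusted p = 0.277). Its log2 fold change was 0.08 without rFSTL1 4 and 0.05 with the length and GC trend removed. Lipa, the lysosomal acid lipase that frees cholesterol from its esters, was at 387, 374, 367 and 407 CPM under PBS and 360, 357, 362 and 359 CPM under rFSTL1. All rFSTL1 libraries lay below all PBS libraries, a separation seen in 3.53% of all tested genes, with a log2 fold change of -0.09 and an adjusted p of 0.286. With the length and GC trend removed, the log2 fold change of Lipa was -0.03. Scd2, a fatty acid desaturase, and Rxrb had adjusted p-values of 0.332 and 0.366. For Scd2 the log2 fold change was 0.09, and 0.05 without PBS 4, and that of Rxrb was 0.12, and 0.01 with the length and GC trend removed.

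The uptake list held 12 genes, 9 tested and 0 called by edgeR, DESeq2 or limma voom, with 3 unadjusted p-values under 0.05. It includes the genes that act on Lpl protein. Lmf1, the factor that matures lipases in the endoplasmic reticulum, was at 19.2, 18.5, 18.9 and 17.8 CPM under PBS and 21.3, 23.2, 20.3 and 26.2 CPM under rFSTL1, without overlap. Its log2 fold change was 0.29 (SE 0.08, edgeR adjusted p = 0.145), and 0.21 without rFSTL1 4 (adjusted p = 0.308). Angptl4, a secreted inhibitor of Lpl, was at 9.23, 8.47, 7.45 and 9.33 CPM under PBS and 7.62, 5.79, 7.54 and 7.44 CPM under rFSTL1. Its groups overlapped, with a log2 fold change of -0.27 (SE 0.12, edgeR adjusted p = 0.293). The receptors Lrp1 and Scarb1 had log2 fold changes of 0.14 and 0.11 (adjusted p = 0.301 and 0.332). That of Lrp1 was 0.06 without rFSTL1 4 and 0.09 with the length and GC trend removed, and that of Scarb1 was 0.06 without PBS 4. Cd36, the fatty acid receptor and PPARγ target, was low at 1.08 and 1.11 CPM and was named after its values had been seen.

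**Figure D4:**
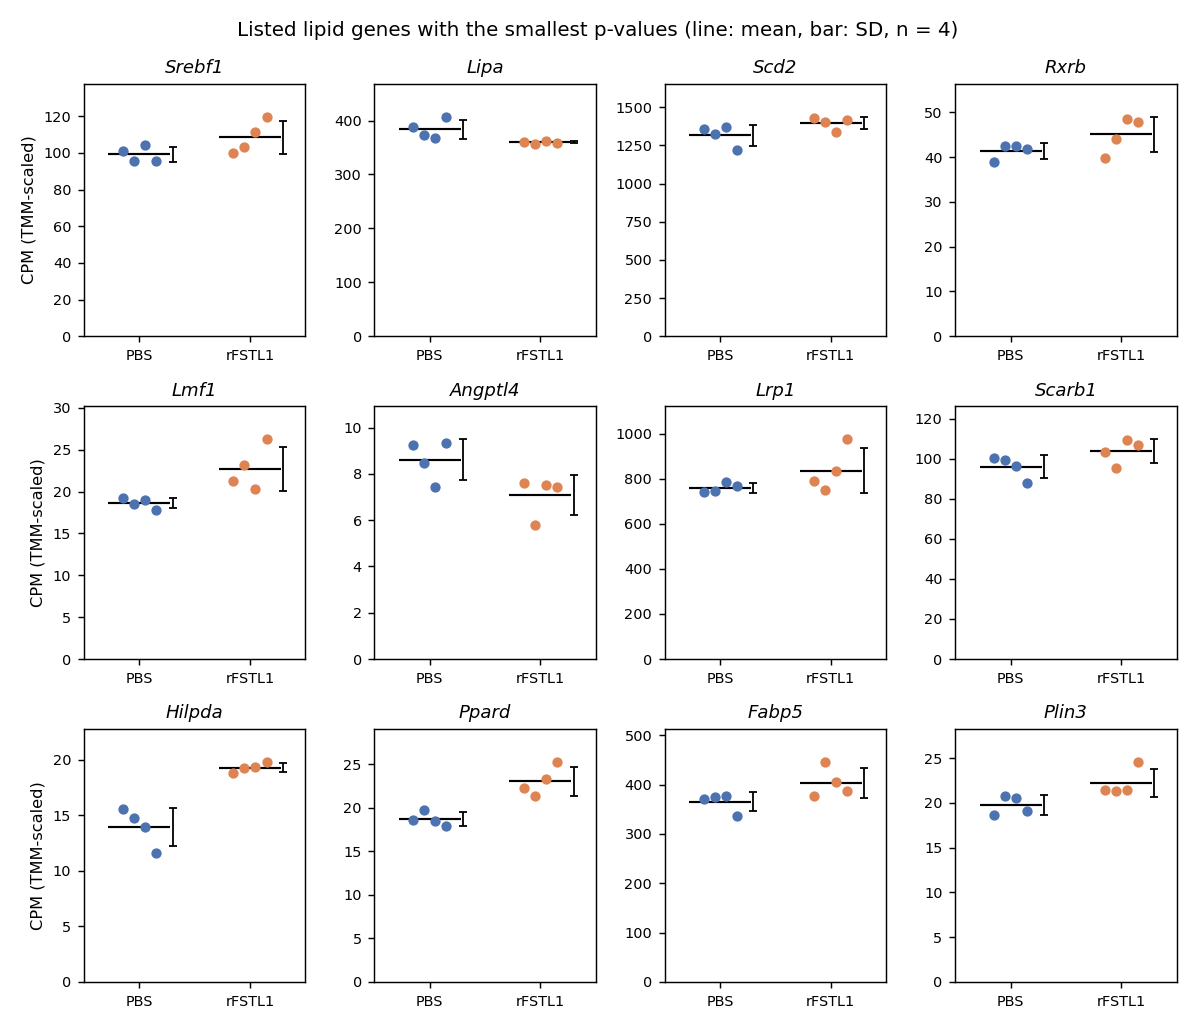
Level in CPM (linear axes from 0) of the 4 genes with the smallest p-values in each list, per library, with mean and SD over 4 libraries. PBS is blue and rFSTL1 is orange. Hilpda is the 1 gene that passed the adjusted threshold, and its rFSTL1 libraries at 18.8 to 19.8 CPM lie above all PBS libraries.

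The storage and oxidation list held 25 genes, 15 tested, of which 1 rose and 0 fell, with 4 unadjusted p-values under 0.05. In 4 of the 15 the groups did not overlap, all higher under rFSTL1 (Hilpda, Ppard, Fabp5 and Plin3), against 4.63% of all tested genes. The list was chosen with earlier results of these data known, so these shares do not test for an excess. Hilpda, a small lipid droplet protein that inhibits the triglyceride lipase encoded by Pnpla2 and is known as a hypoxia-inducible gene, was at 15.5, 14.7, 13.9 and 11.6 CPM under PBS. Under rFSTL1 it was at 18.8, 19.3, 19.3 and 19.8 CPM, above every PBS library. Its mean rose from 13.9 ± 1.72 to 19.3 ± 0.404 CPM (SD, n = 4). The log2 fold change was 0.47 (SE 0.09, edgeR adjusted p = 0.0366). The call of Hilpda was lost in 5 of 8 fits that left out a library, without PBS 2, PBS 3, PBS 4, rFSTL1 3 or rFSTL1 4, with adjusted p-values of 0.104, 0.121, 0.154, 0.125 and 0.0527. Pnpla2 itself was at 23.0 and 23.2 CPM (adjusted p = 0.932), and its activator Abhd5 at 46.9 and 50.3 CPM (adjusted p = 0.372), both named after their values had been seen.

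Hilpda has 2 RefSeq starts in the table, and the second (GRCm38.p6, chr6:29272526-29272625, plus strand) is shown because it holds the core letters ACGTG of a hypoxia response element, in capitals 43 bases upstream. Such a match occurs on either strand in the 250 bases before 16.6% of RefSeq starts, so it is common, and the first Hilpda start has none.
Hilpda: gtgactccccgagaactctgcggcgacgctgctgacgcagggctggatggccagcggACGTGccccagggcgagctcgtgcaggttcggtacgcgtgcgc

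Ppard, which encodes PPARδ, was the PPAR family member measured above the filter. It stood at 18.6, 19.8, 18.5 and 17.9 CPM under PBS and 22.2, 21.4, 23.3 and 25.3 CPM under rFSTL1, without overlap. Its log2 fold change was 0.30 (SE 0.08) with an edgeR adjusted p of 0.0951, and DESeq2 and limma voom called it at adjusted p-values of 0.0315 and 0.0250. Those tools called 195 and 454 genes in all against the 37 of edgeR. Over all 16 alternatives the adjusted p of Ppard ranged from 0.0250 to 0.322, and without rFSTL1 4 the log2 fold change was 0.26 (adjusted p = 0.186). Fabp5 (means of 365 and 403 CPM) and the droplet coat gene Plin3 (19.8 and 22.2 CPM) also separated the groups, with edgeR adjusted p-values of 0.227 and 0.296. For Fabp5 the groups all but met, with rFSTL1 1 at 377.0 CPM and PBS 3 at 376.8 CPM. Fabp5 had a log2 fold change of 0.14, and 0.09 without rFSTL1 2. Ppara, Ppargc1a, Plin1, Plin4, Plin5, Cidec, G0s2, Mgll, Dgat2 and Pdk4 did not pass the filter. In the other lists Apoc1, Apoc2, Ch25h, Olr1, Vldlr and Gpihbp1 did not pass it.

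**Figure D5:**
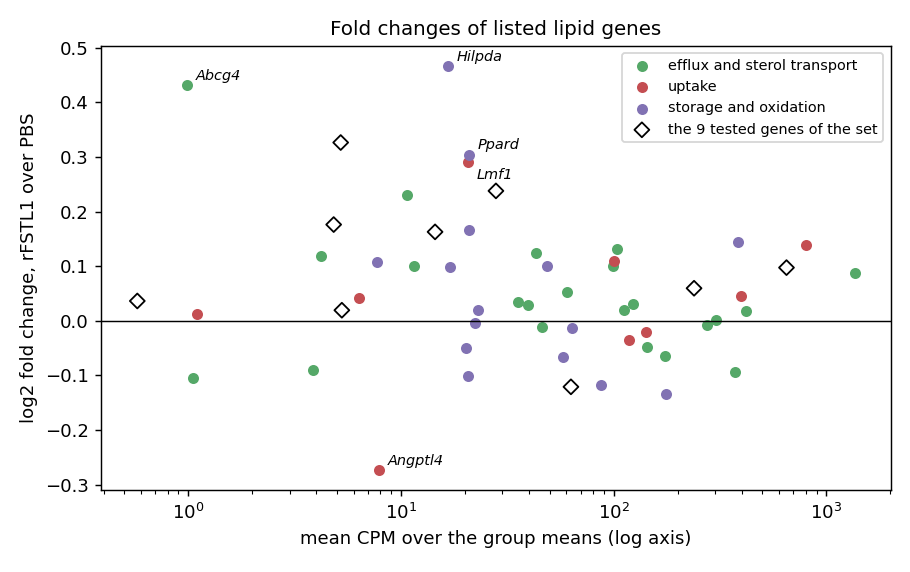
Log2 fold change (rFSTL1 over PBS, edgeR) against mean CPM (log axis) for the 46 tested genes of the 3 lists, coloured by list, and the 9 tested genes of the set as open diamonds. Hilpda lies highest at 0.47, Angptl4 lowest at -0.27, and Abcg4, labelled after its value had been seen, is at 0.43 with an SE of 0.35 at about 1 CPM.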

How the data were processed

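RNA from 8 RAW264.7 libraries, 4 PBS and 4 rFSTL1, was sequenced by the study after oligo(dT) enrichment. The authors deposited an expected count (estimated count) per gene without normalization. The submitters' processing notes name Bowtie2 2.2.8, HISAT2, StringTie 1.3.1 and DESeq2 without their roles, and the genome build and counting tool are not given in the sources used here. Of the nonzero values, 13.0% were not whole, and all were rounded, so tests planned for whole counts could be run. Groups came from the treatment label.

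Genes were filtered with edgeR's filterByExpr (minimum count 10), scaled by TMM and compared with edgeR 4.0.16 (glmQLFit, glmQLFTest) in R 4.3.3. P-values were Benjamini-Hochberg adjusted over all 10748 genes with a threshold of 0.05. Exact two-sided permutation tests used log2(CPM + 1) over 70 assignments. Alternatives were DESeq2 1.42.0, limma 3.58.1 voom with quality weights, upper-quartile scaling, library totals, no filter, a threshold of 0.1, a replicate block and leaving out each library. A fit without each library's length and GC trend (GENCODE longest transcripts, 99.7% of tested genes) was added after the data had been seen. The genes, lists and markers were chosen with earlier results of these data known. By rule, the named list genes are those called and the 4 with the smallest p in each list. Other listed genes were named after their values had been seen, or as not passing the filter. Values of 1 listed gene are not reported here. The code was tested on simulated data. Promoters are from RefSeq (GRCm38.p6). Replicates differed by more than sampling noise (chi-square per degree of freedom at least 3.03). Same-numbered libraries did not deviate together (correlations -0.09 to 0.08).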

Additional observations from a re-analysis of the deposited data

Results flagged for a closer look

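In 42 gene-by-group sets of 4 libraries (21 genes in both groups), 4 held a library whose gap to its nearest neighbour was large against the range of its group by Dixon's 95% criterion. Chance alone would give about 2.1. Fabp4 in rFSTL1 2 was at 16.7 CPM, with the other rFSTL1 libraries at 14.6 to 14.97, and its log2 fold change was 0.11 without that library against 0.16 with it. Angptl4 in rFSTL1 2 was at 5.79 CPM with the others at 7.44 to 7.62, and its log2 fold change was -0.20 without that library against -0.27 with it. Fabp5 in PBS 4 was at 336 CPM, with the other PBS libraries at 371 to 377. Plin3 in rFSTL1 4 was at 24.5 CPM, with the others at 21.4 to 21.5, and its log2 fold change was 0.11 without that library against 0.17 with it. None of these 4 genes was called with or without the library.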

How the results depend on the processing

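The count of called genes of the set was 0 under every alternative, with the threshold of 0.1 tried on the main fit alone. For Lpl the edgeR adjusted p was 0.0600 with the length and GC trend removed together with the replicate block. Of 140 alternative fold changes of single genes of the set, 132 kept their direction and call. Abca1 turned to -0.082 without PBS 1 (range -0.082 to 0.14 over the 4 fits without 1 library in which it passed the filter). Apoe turned to -0.068 with limma voom, -0.0037 with the replicate block, -0.11 with the length and GC trend removed, -0.13 with both, and -0.15 to 0.10 without 1 library. The number of genes of the set at an unadjusted p under 0.05 was 1 (without rFSTL1 3) to 4.

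Of the listed lipid genes, 1 was called. The count was 2 at a threshold of 0.1, with DESeq2 and with limma voom, 0 with the replicate block and with the length and GC trend removed together with the replicate block, and 0 to 1 without 1 library. Hilpda kept a log2 fold change of 0.38 to 0.51 over 16 alternatives with adjusted p-values of 0.0013 to 0.154 and was called in 9. With the replicate block its adjusted p was 0.0531, and 0.0609 with the length and GC trend also removed. The replicate block changed no other call of a named gene.

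Over all genes 37 were called. The count was 133 at a threshold of 0.1, 127 with no filter, 56 with upper-quartile scaling, 195 with DESeq2, 454 with limma voom, 74 with the length and GC trend removed, 71 with that trend and the replicate block, 41 with the replicate block alone, and 11 (without PBS 2) to 99 (without rFSTL1 1) without 1 library. The cause was not tested. The numbers pair no libraries by label. Counts were few for Abca1 and Pparg, and each group held 4 libraries. Why the other genes of the set were not called was not tested.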
